A study of Saccharomyces cerevisiae with 24 samples.

Results

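The 41 yeast deletion strains described here each lack a protein of the large subunit of the mitochondrial ribosome. They were taken by systematic gene name from the barcode probes of the array (the MRPL genes together with RML2, MRP7, MRP20, MRP49, IMG1, IMG2 and MNP1), and they are 41 of the 5526 strains with a barcode probe. The authors give a smaller number of strains for the pooled library. Shares of all 5526 strains are therefore shares of the strains on the array, and not all of these were in the pool. In this screen, deletion strains of a haploid library were pooled and transformed with a multicopy plasmid carrying MDM33 behind the GAL1/10 promoter, or with the plasmid without insert. MDM33 encodes a protein of the mitochondrial inner membrane, and its overexpression stops growth. The promoter is repressed on glucose and induced on galactose, so strains that keep a barcode signal on galactose are candidates for suppression of the arrest.

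There were 4 groups: MDM33 plasmid on 2% galactose for 4 days, MDM33 plasmid on 2% glucose for 2 days, empty vector on 2% galactose for 4 days, and empty vector on 2% glucose for 2 days. All strains in all groups carried a single gene deletion in the same haploid background, and cells were taken from plates as a pool. Each group was measured in 2 independent experiments, and since each sugar had its own time on the plate, sugar and time cannot be told apart.

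Mitochondrial ribosomes translate the few proteins that are encoded in mitochondrial DNA, almost all of them subunits of the respiratory chain and the ATP synthase. The large subunit carries the peptidyl transferase centre and the stalks, including the factor-binding stalk. It also carries the central protuberance facing the small subunit, and the exit tunnel from which new proteins enter the inner membrane. Yeast can live on fermentable sugars without mitochondrial translation, but it then forms small, respiration-deficient colonies, and many of these mutants lose their mitochondrial DNA.

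A barcode signal is given in the arbitrary units of the array, averaged over dyes, probes and the 2 barcodes of a strain (uptag and downtag). Every one of the 24 dye channels was scaled by the authors to about the same total (147379000 to 147667000 units), so a signal is a share of the pool, and a strain with fewer cells cannot be told apart from one whose neighbours grew more. Signals of 2 barcodes cannot be set against each other. The detection limit of a channel was the 99th percentile of the probes for the tag not labelled there, and it was 786 to 3339 units for MDM33 on galactose, 176 to 837 units for MDM33 on glucose, 185 to 601 units for the empty vector on galactose and 263 to 732 units for the empty vector on glucose. The limit was highest for MDM33 on galactose. A strain was called detected in an experiment when at least 1 of its tags was above the limit. In experiment 1 the glucose DNA was labelled with Cy5 and the galactose DNA with Cy3, so that dye and sugar cannot be told apart there, whereas experiment 2 had both dyes.

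Most large-subunit strains that were present on glucose gave no signal on galactose, with or without MDM33. On galactose 8 of the 41 strains (19.5%) were detected in at least 1 sample, against 4148 of all 5526 strains (75.1%). On glucose 29 of the 41 (70.7%) were detected in at least 1 sample, against 4354 of all strains (78.8%). A signal on glucose with none in any galactose sample was found for 21 of the 29 strains (72.4%), against 257 of 4354 strains in the whole pool (5.90%). For the MDM33 plasmid alone this count was 21 of 28 (75%, against 20.8% of the pool), and for the empty vector alone it was 18 of 25 (72.0%, against 5.04%). It was 22 of 28 (against 6.57%) in experiment 2, where each DNA was hybridized in both dyes, and 10 of 18 (55.6%, against 7.11%) in experiment 1 alone. With either single dye of experiment 2 it was 20 of 29 (Cy3, against 6.00% of the pool) and 21 of 29 (Cy5, against 5.70%). The plot of all member signals shows these strains in the middle rows, dark in all galactose columns and mostly brightest on glucose in experiment 2. An exception was the strain without Mrpl33, detected only with the empty vector on glucose in experiment 1.

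**Figure D1:**
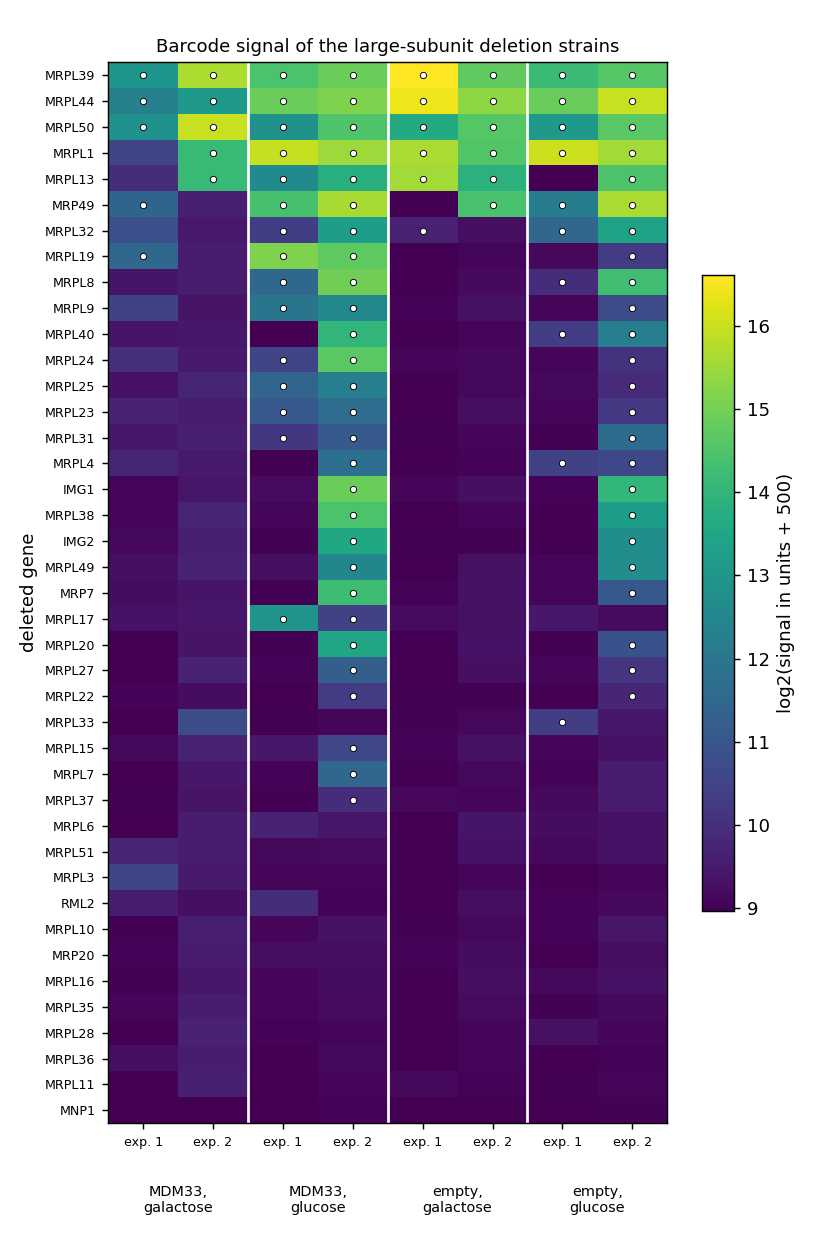
Signal of each of the 41 large-subunit strains (rows, by deleted gene, ordered by the number of samples in which they were detected) in the 8 samples (columns, 2 experiments in each of 4 groups), as log2 of units plus 500. White dots mark detected strains, and 3 rows carry a dot in all 8 samples while 12 carry none.

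Loss on galactose was also counted within each experiment. With the MDM33 plasmid, 10 of the 15 strains detected on glucose in experiment 1 (66.7%) and 23 of 28 in experiment 2 (82.1%) were not detected on galactose, against 20.5% and 40.5% of all strains. The empty vector counts were 5 of 10 (50.0%) and 18 of 24 (75%), against 5.70% and 5.31% of all strains. The share lost was above that of the whole pool in each of these 4 comparisons, and the difference between the plasmids was not tested. The median galactose signal of the members detected on glucose was 15.3% and 7.96% of that on glucose with MDM33 in experiments 1 and 2, against 26.3% and 14.3% for all strains. For the empty vector it was 7.31% and 9.45%, against 84.2% and 99.1% for all strains. Of the member values on galactose behind these medians, 5 of 10 to 23 of 28 were below the limit, so the percentages are partly background. On glucose in experiment 2 the median signal of all 41 members was 2831 units with MDM33 and 635 units with the empty vector. Over all strains it was 16512 and 16192 units, so the members had less room above the limit.

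**Figure D2:**
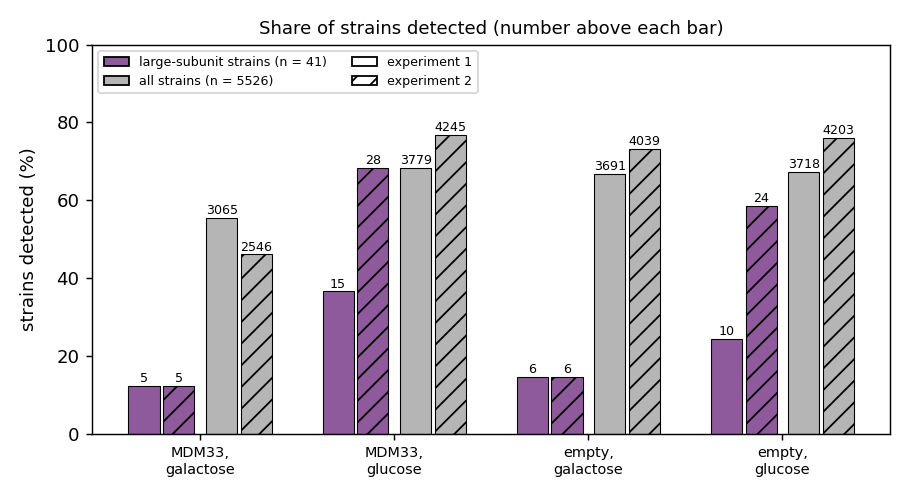
Percent of strains detected in each group, for the 41 large-subunit strains (purple) and all 5526 strains (grey), in experiment 1 (plain) and experiment 2 (hatched), with the number of strains above each bar. On galactose 5 or 6 large-subunit strains were detected in each sample, and on glucose between 10 and 28.

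The strains lost on galactose included those lacking Mrpl8, Img1 or Mrpl38. Mrpl8 (YJL063C, bL17m in the unified nomenclature) is a counterpart of bacterial L17, and its strain had 169 and 249 units with MDM33 on galactose, against 2429 and 31536 units with MDM33 on glucose. With the empty vector it had 4 and 68 units on galactose, against 500 and 19328 units on glucose. In experiment 2 its signal with the empty vector was thus at least 37.7-fold lower on galactose, taking the detection limit as the highest value it could have had. Img1 (YCR046C, bL19m), named for the integrity of the mitochondrial genome, had a strain with 36 and 182 units with MDM33 on galactose, against 90 and 30301 units on glucose, at least 17.1-fold lower in experiment 2. With the empty vector it had 53 and 116 units on galactose, against 22 and 16081 units on glucose, at least 31.3-fold lower in experiment 2. The strain without Mrpl38 (YKL170W, uL14m), a counterpart of bacterial L14, had 43 units on galactose with the empty vector in experiment 2, against 9055 units on glucose (at least 17.6-fold lower). In experiment 2, a bound over 1 could be given for 18 of the 23 lost strains with MDM33 (1.13 to 28.2-fold, median 6.36) and for 16 of the 18 with the empty vector (1.13 to 37.7-fold, median 4.29). In experiment 1 it could be given for 6 of the 10 with MDM33 (median 2.21) and for 5 of the 5 with the empty vector (median 2.60). For the other strains the glucose signal was below the galactose limit, so that a loss was not measurable even though they counted as not detected.

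By site, none of the 4 exit tunnel strains (lacking Mrpl22, Mrp20, Mrpl40 or Mrpl4) was detected in any galactose sample, while 3 of them were detected on glucose in experiment 2 with each plasmid. Mrpl40 (YPL173W, uL24m) lies at the tunnel exit, and its strain had 200 units with MDM33 on galactose in experiment 2, against 15943 units on glucose. None of the 6 central protuberance strains (lacking Mrpl7, Mrpl36, Mrp7, Mrpl35, Mrpl28 or Mrpl17) was detected on galactose either, and 3 of them were detected on glucose with MDM33 in experiment 2 and 1 with the empty vector. The strain without Mrp7 (YNL005C, bL27m), a counterpart of bacterial L27, which reaches towards the peptidyl transferase centre, had 171 units with MDM33 on galactose in experiment 2, against 19003 units on glucose. Of the 3 strains lacking proteins near the peptidyl transferase centre, those without Rml2 and Mrpl16 were never detected, and that without Mrpl9 was detected on glucose only. Among the stalk proteins, the strain without Mrpl1 was detected on galactose in 3 of 4 samples and that without Mrpl19 in 1. Those without Mrpl11 and Mnp1 were never detected. Over all 41 members, 8 (19.5%) were detected on galactose in at least 1 sample, against 75.1% of all strains. Each site holds few strains, so nothing is read from its count, and the sites were not tested against each other.

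Strains lacking a protein with a bacterial counterpart and strains lacking a protein specific to mitochondria were both found on glucose. Of the 26 strains lacking a conserved protein, 3 were detected with MDM33 on galactose in experiment 2 and 17 on glucose. Of the 15 strains lacking a protein specific to mitochondria, the counts were 2 on galactose and 11 on glucose. The empty vector counts of experiment 2 were 3 on galactose and 16 on glucose for the conserved class, and 3 on galactose and 8 on glucose for the specific class. Experiment 1 with the empty vector had few members, with 4 on galactose and 8 on glucose in the conserved class and 2 on each sugar in the specific class. These counts were not tested against each other.

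**Figure D3:**
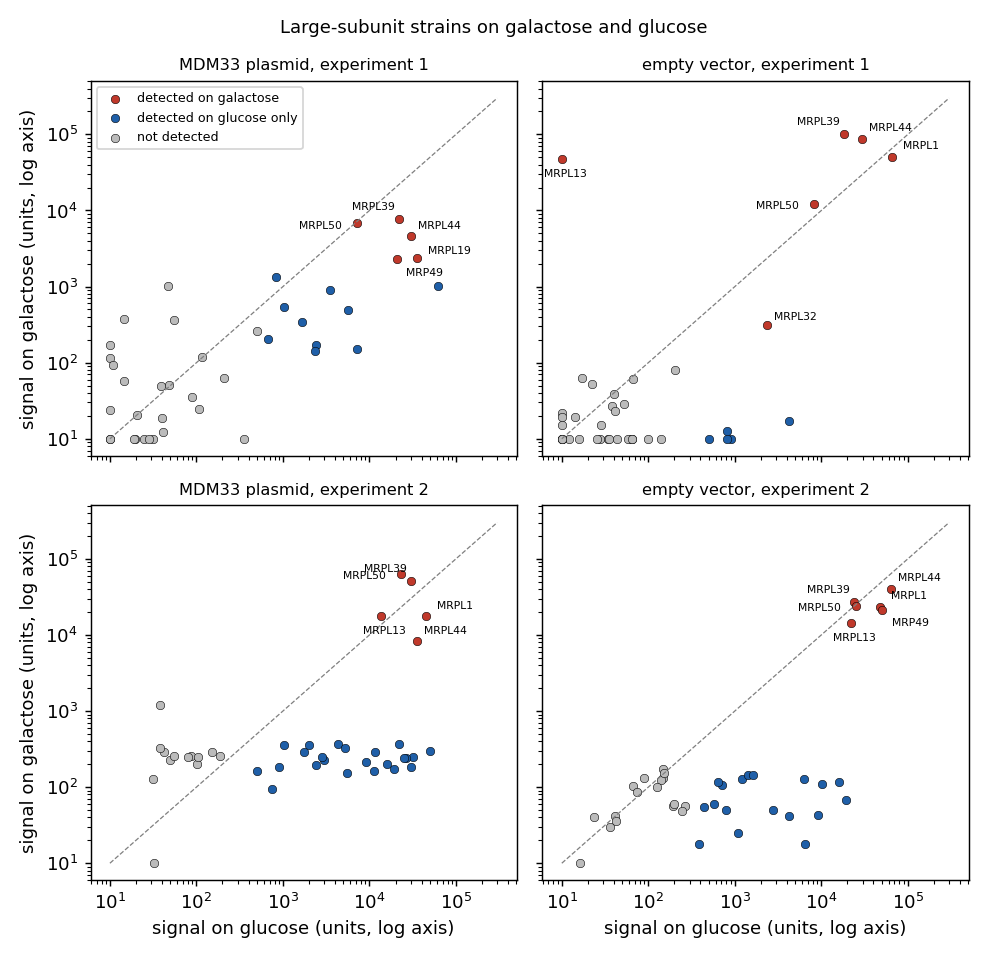
Signal of the 41 large-subunit strains on galactose (vertical axis) against glucose (horizontal axis) for each plasmid and experiment, in units on log axes, with values under 10 drawn at 10 and the dashed line marking equal signals. Strains detected on galactose are red and named, those detected on glucose only are blue, and in experiment 2 the blue strains spread over about the whole range of glucose signals while staying in a narrow band on galactose.

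The 8 strains with a signal on galactose lacked Mrpl39, Mrpl50, Mrpl44, Mrpl1, Mrpl13, Mrp49, Mrpl19 or Mrpl32. Of these, 3 (lacking Mrpl39, Mrpl50 or Mrpl44) were detected in all 8 samples, against 2100 of 5526 strains (38.0%). These are also the only members detected on galactose with MDM33 in both experiments, against 2190 of all strains (39.6%). With the empty vector on galactose, 5 members were detected in both experiments (these 3 and the strains without Mrpl1 and Mrpl13), against 3635 of all strains (65.8%).

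Mrpl39 (gene MRPL39, YML009C, bL33m) is a small protein with a counterpart in bacterial L33. Its strain had 7661 and 51711 units with MDM33 on galactose in experiments 1 and 2, against 99796 and 27012 units with the empty vector on galactose. On glucose it had 21782 and 29849 units with MDM33, against 18127 and 24051 units with the empty vector. On galactose the order of the plasmids turned between experiments, with 7.68% of the empty vector signal in experiment 1 and 191% in experiment 2, and the log2 difference was -1.35 (SE 1.10, adjusted p = 0.430 in limma). With MDM33 on galactose its uptag was at 4.56 and 51.1 times the limit, and its downtag at 0.117 and 3.03 times, so that the detection in experiment 1 rested on the uptag.

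The strain lacking Mrpl50 (MRPL50, YNR022C, bL9m), a counterpart of bacterial L9, was detected in all 8 samples. It had 6825 and 64094 units with MDM33 on galactose, against 12274 and 24350 units with the empty vector on galactose. On glucose it had 7102 and 22926 units with MDM33, against 8230 and 25203 units with the empty vector. With MDM33 on galactose its uptag was at 0.654 and 16.7 times the limit and its downtag at 14.6 and 78.9 times, so that the detection in experiment 1 rested on the downtag. The MDM33 signal on galactose was 55.6% of that of the empty vector in experiment 1 and 263% in experiment 2, a log2 difference of 0.29 (SE 1.23, adjusted p = 0.900 in limma). The ranges of the groups overlapped on both sugars.

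Mrpl44 (MRPL44, YMR225C, mL53) is a protein of the mitochondrial large subunit without a bacterial counterpart. Its strain had 4574 and 8205 units with MDM33 on galactose, against 88040 and 40504 units with the empty vector on galactose. On glucose it had 29973 and 35490 units with MDM33, against 29371 and 63840 units with the empty vector. Both values with MDM33 on galactose were below all 6 others, at 5.20% and 20.3% of the empty vector on the same sugar. In experiment 1 the detection with MDM33 on galactose rested on the uptag (2.71 times the limit), since the downtag was at 0.123 times.

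For the remaining strains the signal on galactose depended on the experiment. Mrpl1 (MRPL1, YDR116C, uL1m) forms the stalk beside the exit site for transfer RNA. Its strain had 1005 units (below the limit) and 17798 units with MDM33 on galactose, against 50996 and 23493 units with the empty vector. Its glucose values were 61852 and 45323 units with MDM33, against 66341 and 47379 units with the empty vector. In experiment 1 the MDM33 signal on galactose was at least 24.7-fold lower than that of the empty vector, and in experiment 2 it was 75.8% of it. With MDM33 on galactose in experiment 2 it was detected by the downtag (27.7 times the limit) and not by the uptag (0.153 times).

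The strain lacking Mrpl13 (MRPL13, YKR006C, mL50), a protein specific to mitochondria, had 490 units (below the limit) and 17799 units with MDM33 on galactose, against 47555 and 14559 units with the empty vector on galactose. On glucose it had 5669 and 13696 units with MDM33, against 0 and 22221 units with the empty vector. It was thus listed at 0 in 1 glucose sample while both of its tags were strong on galactose with the same plasmid in the same experiment (34121 and 60988 units). With MDM33 on galactose in experiment 1 it was at least 23.1-fold lower than with the empty vector.

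Mrp49 (MRP49, YKL167C, mL61) is also specific to mitochondria. Its strain had 2279 and 296 units with MDM33 on galactose, the second below the limit, against 17 and 21575 units with the empty vector on galactose. On glucose it had 20980 and 50031 units with MDM33, against 4262 and 50904 units with the empty vector. Each plasmid thus had 1 galactose sample in which this strain was detected and 1 in which it was not, in opposite experiments. The detection with MDM33 rested on the uptag at 1.33 times the limit, with the downtag at 0.155 times.

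The last of these strains were close to the limit on galactose. The strain without Mrpl19 (MRPL19, YNL185C, uL11m), at the base of the factor-binding stalk, had 2409 and 241 units with MDM33 on galactose, against 0 and 50 units with the empty vector on galactose. It passed the limit only in the first of these, through the uptag, at 1.34 times the limit. Mrpl32 (MRPL32, YCR003W, bL32m) is processed by the m-AAA protease before the subunit is assembled, and its strain had 1334 and 214 units with MDM33 on galactose, both below the limit, against 309 and 110 units with the empty vector on galactose. On glucose it had 823 and 9107 units with MDM33, against 2364 and 10243 units with the empty vector. Its single detection on galactose, with the empty vector in experiment 1, rested on the uptag at 1.39 times the limit.

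**Figure D4:**
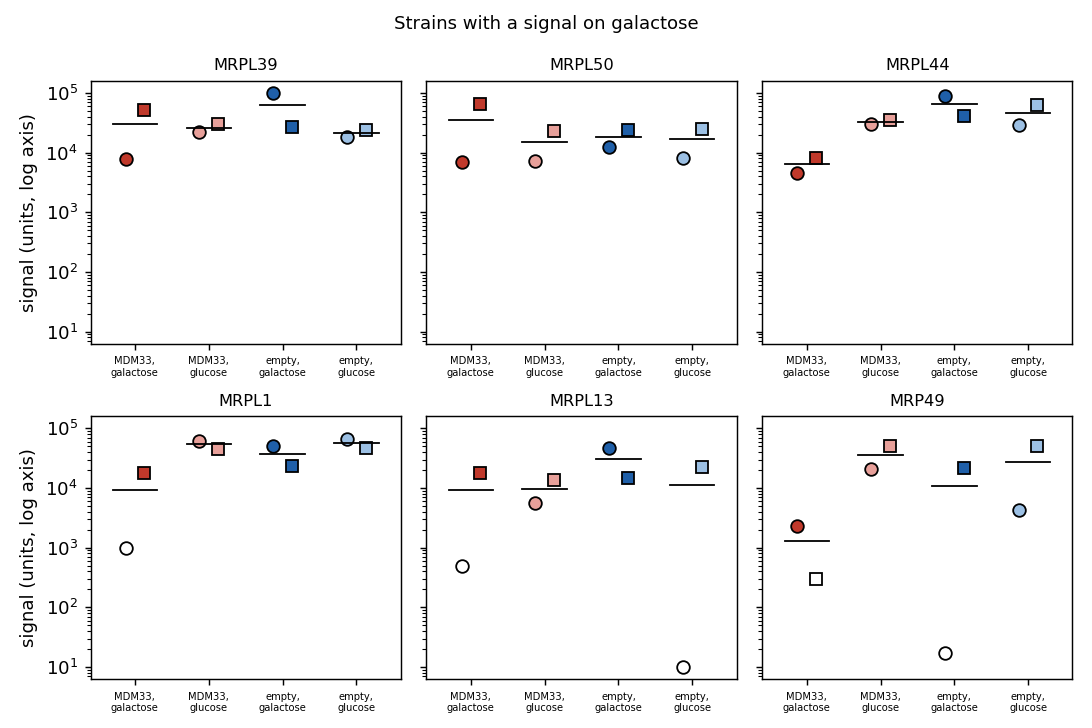
Signals in units on a log axis of 6 strains with a signal on galactose, in experiment 1 (circles) and experiment 2 (squares), with the mean as a line; open symbols are below the detection limit and values under 10 are drawn at 10. For the strain without Mrpl44 the samples with MDM33 on galactose (4574 and 8205 units) lie below all others, and for the other strains the experiments of at least 1 galactose group stand far apart.

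The plasmids were compared over all strains with limma on log2 of the signal plus 500 units. The fit held the 4148 strains whose mean signal over all groups was above the limit, and 24 of the 41 members were among them. The 17 others were the 12 never detected and 5 that were detected on glucose only. Of the 24, 16 were never detected on galactose, so that their differences on galactose are between signals below the limit. With 2 experiments per group an exact permutation test cannot give a two-sided p below 0.333, so the spread was pooled over groups. That spread was not alike between groups. Over all tested strains the median absolute log2 difference between experiments was 1.68 for MDM33 on galactose. It was 0.64 for MDM33 on glucose, 0.75 for the empty vector on galactose and 0.66 for the empty vector on glucose. For the 24 members it was 0.48 and 0.21 on galactose with MDM33 and the empty vector, against 2.46 and 1.76 on glucose. The SE and p-values use a single spread per strain and do not show this.

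On galactose, 1 of the 24 tested strains was lower with MDM33 than with the empty vector at an adjusted p under 0.05 and none was higher, against 450 lower (10.8%) and 12 higher (0.289%) of all 4148 strains. The count over all strains was itself unstable, with 0 calls under array weights, with uptags only and on leaving out any 1 sample of the other 3 groups, and 1540 lower and 254 higher without MDM33 on galactose replicate 1. At an unadjusted p under 0.05 the members were also 1 lower and 0 higher, against 33.5% lower and 1.52% higher of all strains. The strain called lower lacked Mrpl44, which fell by 3.18 on the log2 scale (SE 0.83, n = 2 experiments per group, adjusted p = 0.0497 in limma). This call was close to the threshold, and with the experiments as a replicate block the adjusted p was 0.0604. It was also lost under 8 other settings and on leaving out any 1 sample of the other 3 groups (adjusted p = 0.0526 to 0.845 in limma), and the difference was -0.46 when channels were scaled by the 75th percentile of the labelled barcodes. The median log2 difference of the members was 0.35, against -1.57 for all strains, and 5 of 24 members were below 0, against 3267 of 4148 strains. Since 16 of the 24 were never detected on galactose, this median and these signs rest mostly on signals below the limit. The 33 members never detected on galactose had medians of 57.1 and 246 units with MDM33 there, against 8.42 and 60.3 units with the empty vector. Nothing is therefore read from the median or the signs. The lowest members after Mrpl44 were those lacking Mrpl1 at -2.74 (SE 1.20, adjusted p = 0.149 in limma) and Mrpl13 at -2.66 (SE 1.98, adjusted p = 0.386). The highest were those lacking Mrpl19 at 1.48 (SE 0.92, adjusted p = 0.293), Mrpl9 at 0.74 (SE 0.88, adjusted p = 0.603) and Mrpl32 at 0.70 (SE 1.18, adjusted p = 0.726), none of which was detected with MDM33 on galactose in both experiments. Mrpl9 (YGR220C, uL3m) lies near the peptidyl transferase centre, and its strain had 914 and 155 units with MDM33 on galactose, against 27 and 128 units with the empty vector, all below the limit.

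On glucose, where the promoter is repressed, none of the members and none of all 4148 strains (0%) passed the test between plasmids. At an unadjusted p under 0.05, 5 of the 24 members were higher with MDM33 and 0 were lower, against 24 higher (0.579%) and 19 lower (0.458%) of all strains. These 5 lacked Mrpl19, Mrpl24, Mrpl25, Mrpl17 or Mrpl9 (chosen here by their values). All 5 were undetected with the empty vector on glucose in experiment 1, and Mrpl17 in both experiments, and none of the 5 would have passed the filter without the samples of MDM33 on glucose, so nothing is read from this count. The strain without Mrpl19 had 35720 and 26457 units with MDM33 on glucose, against 64 and 785 units with the empty vector on glucose. In experiment 1, where the empty vector value was below the limit, it was at least 67.7-fold higher with MDM33, and in experiment 2 it was 33.7-fold higher. The fitted log2 difference of 5.20 (SE 0.92, adjusted p = 1.00 in limma) depends on the offset, with 6.34 and 3.77 at offsets of 100 and 2000 units. The strain without Mrpl24 (YMR193W, bL28m) had 1016 and 25367 units with MDM33 on glucose, against 40 and 582 units with the empty vector, at least 1.93-fold higher in experiment 1 and 43.6-fold in experiment 2. That without Mrpl25 (mL59) had 2327 and 4375 units, against 58 and 438 units with the empty vector, at least 4.41-fold higher in experiment 1 and 9.98-fold in experiment 2. At the other end, the strain without Mrpl32 was lowest at -0.64 (SE 1.18). The median of the members was 0.81, against 0.01 for all strains, and it was 0.19 in experiment 1 and 1.01 in experiment 2. The 5 strains that passed the filter through MDM33 on glucose are among these 24, so nothing is read from this median either.

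Between the sugars, no member and no strain (0%) passed the test with either plasmid. Fitted differences of strains below the limit on galactose depend on the offset. The 16 tested members never detected on galactose passed the filter only through their glucose samples, so lower values on galactose were set in advance. Nothing is therefore read from the members' counts and medians between sugars. With MDM33, 8 of the 24 members were lower on galactose than on glucose at an unadjusted p under 0.05, against 1474 of 4148 strains (35.5%), and 0 were higher, against 1.76%. The median was -2.20, against -1.87 for all strains. The lowest fitted value was that of Mrp49 (-4.47, SE 1.87, adjusted p = 0.126 in limma), whose strain was below the limit on galactose in experiment 2 (at least 28.2-fold lower there), and the highest Mrpl50 (0.70, SE 1.23, adjusted p = 0.705). For the empty vector, 1 member (lacking Mrpl32) was lower at an unadjusted p under 0.05, against 58 of all strains (1.4%), and 0 were higher, against 0.506%. The median was -0.77, against -0.09 for all strains. The lowest fitted value was that of Mrpl8 (-3.06, SE 1.58, adjusted p = 1.00 in limma), whose strain was below the limit on galactose in both experiments (at least 1.59-fold and 37.7-fold lower), and the highest lacked Mrpl13 (3.00, SE 1.98), which was at 0 units in 1 of its glucose samples. Within experiment 1 this median was -0.06 and within experiment 2 it was -1.33, beside 10 and 24 members detected on glucose.

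The interaction of plasmid and sugar, which asks whether MDM33 changed a strain more on galactose than on glucose, had no call among the members or among all strains (0%). At an unadjusted p under 0.05, 2 members were lower and 0 higher, against 736 lower (17.7%) and 31 higher (0.747%) of all strains, and the median was -1.25, against -1.63. Here too 16 of the 24 members were never detected on galactose, so nothing is read from this median. The lowest were the strains without Mrpl13 (-4.13, SE 2.80, adjusted p = 0.439 in limma), Mrpl19 (-3.71, SE 1.30, adjusted p = 0.231) and Mrpl44 (-2.78, SE 1.17, adjusted p = 0.263). The strain without Mrpl19 was high with MDM33 on glucose, and that without Mrpl44 was low with MDM33 on galactose. The highest were those without Mrpl32 (1.34, SE 1.67), Mrpl4 (0.79, SE 1.40) and Mrpl50 (0.45, SE 1.74). The strain without Mrpl4 (YLR439W, uL29m), at the tunnel exit, had 371 and 229 units with MDM33 on galactose, against 4 and 25 units with the empty vector, all below the limit.

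On glucose the members differed strongly between the experiments. With MDM33, 13 members were detected in experiment 2 only and 0 in experiment 1 only, against 498 and 32 of all 5526 strains. With the empty vector it was 15 and 1 members, against 526 and 41 strains. Signals were more than 4-fold higher in experiment 2 for 13 of the 28 members detected with MDM33 (46.4%), against 520 of 4277 strains (12.2%), and for 8 of 25 with the empty vector (32%), against 528 of 4244 strains (12.4%). The median log2 difference of experiment 2 over experiment 1 was 1.46 and 1.67 with MDM33 and the empty vector, against 0.25 and 0.21 for all strains. The share was also 46.4% with MDM33 and 40.9% with the empty vector when only the Cy5 channels, the dye of the glucose samples of experiment 1, were used for experiment 2. As an example, the strain without Img2 (mL49) had 14 and 11439 units with MDM33 on glucose, against 0 and 6484 units with the empty vector. The reverse was seen for Mrpl17 (mL46), whose strain had 7221 and 903 units with MDM33 on glucose, against 203 and 90 units with the empty vector, both below the limit.

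**Figure D5:**
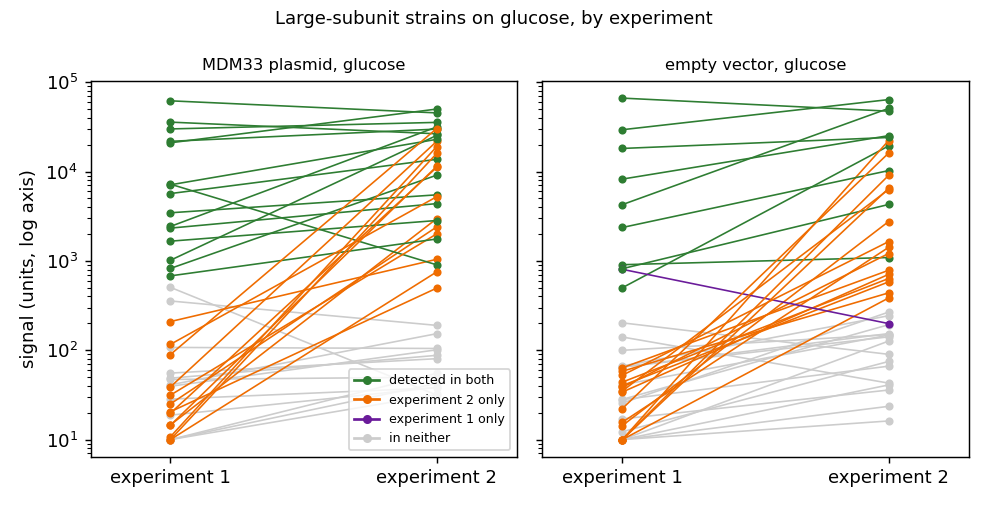
Signal on glucose of each of the 41 large-subunit strains in experiment 1 and experiment 2, joined by a line, for the MDM33 plasmid (left) and the empty vector (right), in units on a log axis with values under 10 drawn at 10. Orange lines, strains detected in experiment 2 only, number 13 with MDM33 and 15 with the empty vector, and only 1 strain was detected in experiment 1 only.

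The members together held 0.026% and 0.139% of the summed strain signal with MDM33 on galactose, 0.168% and 0.355% with MDM33 on glucose, 0.246% and 0.128% with the empty vector on galactose, and 0.110% and 0.264% with the empty vector on glucose. On galactose with the empty vector, 5 strains carried 99.7% and 88.7% of this. With MDM33 on glucose in experiment 2 the 5 highest carried 44.7%, so the signal was spread over more members there. These sums include signals below the limit. They also add up barcodes whose signals cannot be set against each other, so they are not shares of cells.

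A further 12 strains were never detected in any of the 8 samples (29.3%, against 20.3% of all strains). They lacked Rml2, Mrpl3, Mrpl6, Mrpl10, Mrpl11, Mrpl16, Mrpl28, Mrpl35, Mrpl36, Mrpl51, Mrp20 or Mnp1, and 2 of them (Mrpl3 and Mnp1) had 1 probe each on the array. Their highest value was 1004 units (Mrpl3, MDM33 on galactose in experiment 1), and in the glucose samples of experiment 2 they stayed between 16.2 and 193 units. Nothing can be said from these signals about their growth. Of the 29 detected members, 20 were detected by both tags in at least 1 sample, 4 by the uptag only and 5 by the downtag only.

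The small subunit of the mitochondrial ribosome, the other partner in each round of translation, was examined beside it. Of 32 strains on the array, 22 were detected with MDM33 on glucose in experiment 2. Of these, 18 (81.8%) were not detected on galactose, against 40.5% of all strains. The empty vector count was 14 of 19 (73.7%), against 5.31% of all strains. In experiment 1 it was 5 of 10 with MDM33 (50%, against 20.5%) and 5 of 9 with the empty vector (55.6%, against 5.70%). None of the 20 tested strains passed the test between plasmids on galactose (median 0.20), against 11.1% of all strains. Those detected on galactose with MDM33 in both experiments lacked Rsm25, Ehd3 or Kgd4. Kgd4, listed with the ribosome under its older name Ymr31, is a subunit of the alpha-ketoglutarate dehydrogenase complex, and Ehd3 is an enzyme of valine breakdown. The strains without Kgd4 and Ehd3 are included in the counts above. The strain without Rsm25 had 398639 and 127622 units with MDM33 on galactose, against 111604 and 33384 units with the empty vector on galactose, a log2 difference of 1.88 (SE 1.04, adjusted p = 0.245 in limma).

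Among strains lacking a factor of mitochondrial translation, 10 of the 11 detected with MDM33 on glucose in experiment 2 were not detected on galactose. With the empty vector it was 7 of 10, and in experiment 1 it was 3 of 5 with each plasmid. For all strains these shares were 40.5% with MDM33 and 5.31% with the empty vector in experiment 2, and 20.5% and 5.70% in experiment 1. Of the 10 factor strains tested, 1 was called lower with MDM33 on galactose and 0 higher, against 10.8% lower and 0.289% higher of all strains. The factor strain called lower lacked Fmt1, which formylates the initiator methionyl-tRNA. It had 2573 and 552 units with MDM33 on galactose, against 20186 and 20032 units with the empty vector on galactose (-3.52, SE 0.84, adjusted p = 0.0449 in limma). This call was lost in 14 of 23 alternatives, among them the replicate block and leaving out any 1 sample of the other 3 groups (adjusted p = 0.0539 to 0.958 in limma), and the difference was 0.09 with downtags only. Of strains lacking a mitochondrial aminoacyl-tRNA synthetase, 8 of 9 were lost with MDM33 and 7 of 8 with the empty vector in experiment 2. In experiment 1, 3 of 4 were lost with each plasmid. None of the 8 tested passed the test. Of strains lacking a factor of assembly or rRNA modification, 0 of 3 and 2 of 4 were lost with MDM33 in experiments 1 and 2, and 0 of 2 and 1 of 4 with the empty vector. None of the 4 tested passed the test. In that list the strain without Mrm2, a methyltransferase of the large ribosomal RNA, had 294740 and 40631 units with MDM33 on galactose, against 16465 and 6396 units with the empty vector on galactose (3.35, SE 1.49, adjusted p = 0.154 in limma), and that without Mrh4, a helicase of late assembly, was detected in all 8 samples. The strain without Yta12, a subunit of the m-AAA protease, had 206 units with MDM33 on galactose in experiment 2, against 10395 units on glucose. In experiment 1 it was below the limit on both sugars with MDM33 (0 and 109 units). The strain without Afg3, the other subunit listed, was never detected. The strain without the RNA helicase Mss116 had 45 units on galactose with the empty vector in experiment 2, against 15162 units on glucose. In experiment 1 it had 0 units on both sugars with the empty vector.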

How the data were processed

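The deposited values were linear intensities, for which the authors corrected the spot background in ArrayVision and brought each channel to a common total. The array annotation gave strain and tag, and no genome build or barcode sequence was used here. Of 14767 annotated probes 26 were not used, and 24 per-sample columns of unscaled values were left out because their numbers do not match the sample titles. Groups came from the sample labels. Dyes were averaged first, then the original and mutated probes of a tag, then the tags, and only the authors' scaling was applied. The 5 contrasts were fitted together to 8 values per strain with lmFit and eBayes of limma 3.58.1 (R 4.3.3), with an offset of 500 units, 4 degrees of freedom left for the residual, and p-values were adjusted by Benjamini-Hochberg over 4148 strains (threshold 0.05). Counts, medians and figures were made in Python 3.11.15 (pandas 2.3.3, numpy 2.4.6, matplotlib 3.10.9). The procedure was also run on simulated data with a single spread per strain in all groups. The spread of these data differed between groups, so that run cannot show how the p-values behave here. A bound on a fold used the detection limit in place of a signal below it. The number of arrays limits the precision.

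Strains with values were named by rule: those past a test, those detected on galactose with MDM33 in both experiments, the 3 highest and 3 lowest in the galactose contrast and in the interaction, and the extremes of the other contrasts. Other strains were named after their values were seen. The members, lists and rule were chosen with earlier results of these data known, and no list test was made. The series' design text gives the experiments as replicate sets, which pairs samples of 1 number. Deviations of samples of 1 experiment correlated between groups at 0.061 to 0.316 over the tested strains. Alternatives covered the offset, scaling, filter, tags, probes, dyes, array weights, the replicate block and each sample left out in turn.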

Additional observations from a re-analysis of the deposited data

How the results depend on the processing

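Under the alternatives, 583 values kept their direction and side of the threshold or stayed close, 52 moved, 15 lost and 2 gained a call, and 11 turned. On galactose, the number of members past the test between plasmids was 0 instead of 1 with the 75th percentile of all probes or of the labelled barcodes as the scale, Cy5 only, array weights, the brighter probe, downtags only, uptags only, an offset of 100 or the replicate block. The adjusted p for the strain without Mrpl44 ranged up to 0.845 there. It was 0 to 2 over the samples left out, with 0 on leaving out either replicate of any group other than MDM33 on galactose. The 2 strains called without MDM33 on galactose replicate 2 lacked Mrpl44 and Mrpl1 (-4.55), beside 746 of all 4148 strains (18.0%). Over all strains, 6 and 9 were called with the percentile scalings and 325 with the replicate block, instead of 462. The members' median was 0.56 and 1.95 with the percentile scalings (all strains -0.82 and 0.75), 0.52 and 0.11 with Cy3 or Cy5 only, 0.11 and 0.44 with downtags or uptags only, 1.01 and 0.11 with offsets of 100 and 2000, and 0.10 to 0.48 over samples left out.

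On glucose the members' median ranged between -0.45 and 2.28 over samples left out, always with 0 calls. With MDM33 between sugars, 2 members passed with downtags only, 2 with no filter and 1 with an offset of 2000 (12.7%, 11.9% and 13.4% of all strains), and 0 to 2 over samples left out (2 without replicate 1 or 2 of MDM33 on galactose, beside 42.8% and 16.0% of all strains), with medians of -3.04 to -0.37. With the empty vector it was 0 throughout, with medians of -1.60 to 0.05. The interaction median was -0.63 and 0.49 with the percentile scalings (all strains -0.73 and 0.63), -0.15 with no filter, -0.82 with an offset of 2000, -0.58 with uptags only, and -2.32 to 0.52 over samples left out, with 0 to 1 calls (Mrpl19, adjusted p = 0.0327 in limma, without MDM33 on galactose replicate 1, beside 21.2% of all strains). The replicate block changed no other call among the members. The cause was not tested.

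Directions turned for the strain without Mrpl32 on galactose with downtags only (-0.13). Over samples left out they turned for Mrpl32 on glucose (-2.07 to 0.79), Mrpl50 between sugars with MDM33 (-0.87 to 2.28), and in the interaction for Mrpl50 (-1.12 to 2.03), Mrpl4 (-0.58 to 2.17) and Mrpl32 (-0.088 to 2.77). Called by both tags, 0 members instead of 3 were detected with MDM33 on galactose and 5 instead of 9 with the empty vector on glucose in both experiments. In experiment 1 alone, 10 instead of 21 members were seen on glucose and never on galactose. The limit of up to 3339 units for MDM33 on galactose hides weaker signals there.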
